A study of Mus musculus with 33 samples.

Results

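In cultured myotubes from mice with 1 expanded Dmpk allele (+/480), 110 alternative splicing events in 88 genes differed from wild-type myotubes. They are all the events that the authors' deposited tables list for this comparison, out of 549 events over the 4 comparisons of the series, and no row had to be dropped as a duplicate. Of the 88 genes, 14 had more than 1 event. Each event had already passed the authors' selection, which asked for 5 reads or more on average, a false discovery rate (FDR) of 0.05 or less and a difference of 10 percentage points or more. "Rose" and "fell" are used below for events that passed it.

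The study used mice whose Dmpk gene was edited to carry a long CTG repeat. The edited allele, named 480, holds 480 repeats. The groups used here are Dmpk +/480 myotubes with 1 expanded and 1 normal allele, Dmpk 480/480 myotubes with expansions on both alleles, and wild-type myotubes, all of the FVB strain and with 3 libraries each. Each library is labelled as derived from a different mouse, so replicates are separate animals, and the labels give no age, growth condition or cell source beyond the mouse. Ribosomal RNA was depleted from total RNA, and paired-end, strand-specific libraries were sequenced on an Illumina NextSeq. The splicing tables hold no expression levels, so the labelled cell type could not be checked against its markers. In RNA from whole cultures, a change within the myotubes and a change in the share of other cells cannot be told apart.

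Dmpk encodes a kinase of muscle, and its CTG repeat lies in the 3′ untranslated region. In myotonic dystrophy the expanded repeat is transcribed into CUG repeats that stay in nuclear foci and bind muscleblind-like (MBNL) proteins, which guide the change of many muscle transcripts to their adult splice forms. Loss of free MBNL in muscle is known to shift such exons towards forms used in embryonic muscle. Troponin T, the ryanodine receptor, the muscle calcium channel and several Z-disc and cytoskeletal genes are among its known targets.

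Skipped exons made up 69 of the 110 events, retained introns 14, alternative 3′ splice sites 12, mutually exclusive exons 10 and alternative 5′ splice sites 5. Inclusion is the percentage of a gene's informative transcripts that hold the exon, the longer form of the exon or the intron, and each change is given in percentage points as +/480 minus wild type. Inclusion was higher in +/480 for 55 events (50.0%) and lower for 55, with a median absolute change of 23.8 points. The 3 libraries of each group did not overlap at 89 of 110 events (80.9%), and at the other 21 the groups overlapped or touched. In 480/480 myotubes against the same wild-type libraries, 218 of 243 events (89.7%) did not overlap. At the level of single events, the median SD was 7.4 points in +/480 and 6.1 points in wild type.

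Genes of 3 lists of known muscle splicing targets, sarcomere proteins and calcium-handling proteins, 170 genes together, held 25 of the events in 12 genes. Inclusion was higher for 13 and lower for 12, the groups did not overlap at 23 (92.0%), and the median absolute change was 15.1 points with a median SD of 3.2 points in +/480 and 3.3 points in wild type. The 2 Clasp1 events and 1 Ttn event lay well above that median, with changes of 38.7, 33.4 and 26.3 points in size. Of the 25 events, 8 were in Tnnt3, 3 in Tnnt2 and 3 in Dnm2, none of them with overlap, and several are views of the same choice. The share without overlap and the small SDs of the muscle lists therefore rest in large part on these genes. The other 85 events, in 76 genes, had a median absolute change of 29.5 points with median SDs of 9.6 and 8.5 points in +/480 and wild type, and 66 (77.6%) did not overlap. At least 1 library stood at exactly 0% or 100% in 3 of the 25 muscle-list events (12.0%), and in 71 of the other 85 (83.5%). Of the 43 events with a change of 30 points or more, 40 (93.0%) had such a library, against 34 of the 67 smaller ones (50.7%). The number of reads behind each value is unknown beyond the authors' minimum, so counting error cannot be given for single events. Without any event that had a library at 0% or 100%, 36 events in 23 genes remained, 14 higher and 22 lower, with a median absolute change of 16.5 points, and the groups overlapped at none of them.

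**Figure D1:**
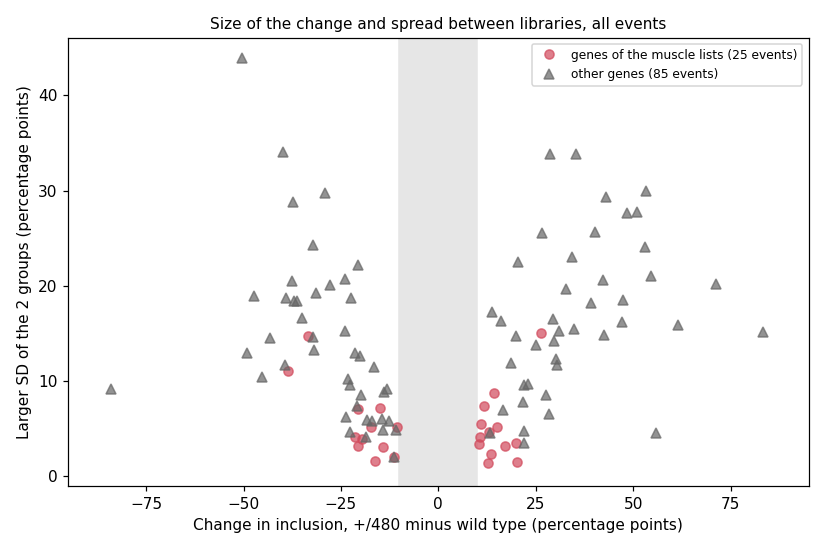
Change in inclusion of all 110 events (horizontal axis, +/480 minus wild type, percentage points) against the larger of the SDs of the 2 groups (vertical axis, percentage points, 3 libraries per group). Circles are the 25 events in genes of the muscle lists and triangles the other 85. The grey band is the range under 10 points that the authors' selection left empty. The circles have a median absolute change of 15.1 points, with Clasp1 and Ttn furthest from the band, and the triangles have a median of 29.5 points and reach larger changes and larger SDs.

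Troponin T, the subunit that ties the troponin complex to tropomyosin on the thin filament, had the most events. Its fast skeletal gene Tnnt3 had 8 events and its cardiac gene Tnnt2, which embryonic skeletal muscle also uses, had 3. The groups overlapped at none of the 11. The exons involved are short and sit next to each other in the part of the transcript that encodes the acidic amino-terminal region. Their sequences, from GENCODE M21 transcripts of the C57BL/6J reference genome (GRCm38/mm10, plus strand), are shown because these exons are the ones whose choice changed. Capitals mark the exon, and lower case marks the 9 bases of the neighbouring exons in an annotated transcript.
Tnnt2 12-base exon, chr1:135842015-135842026: aacaggaagAAGCTGTGGAAGagcaagagg
Tnnt2 30-base exon, chr1:135843785-135843814: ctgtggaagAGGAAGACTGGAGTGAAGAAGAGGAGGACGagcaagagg
Tnnt3 18-base exon, chr7:142504048-142504065: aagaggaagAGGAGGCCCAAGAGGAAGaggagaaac
Tnnt3 first 15-base exon, chr7:142504250-142504264: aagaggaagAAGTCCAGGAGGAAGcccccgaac
Tnnt3 second 15-base exon, chr7:142505516-142505530: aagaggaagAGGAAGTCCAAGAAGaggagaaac
Tnnt3 39-base exon, chr7:142507750-142507788: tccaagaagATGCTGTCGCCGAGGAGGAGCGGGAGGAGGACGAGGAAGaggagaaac
Purines (A and G) made up 86.7% of the Tnnt2 30-base exon and 75.0% of its 12-base exon. In Tnnt3 they made up 83.3% of the 18-base exon, 80.0% of both 15-base exons and 76.9% of the 39-base exon. Over the 46 wholly coding skipped exons of the comparison, the median was 52.7% and the range 36.8% to 86.7%.

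In Tnnt2, inclusion of the 30-base exon after the 12-base exon was 43.1%, 45.9% and 43.6% in +/480 myotubes, against 23.0%, 25.7% and 23.0% in wild-type myotubes. The same exon after an exon further upstream stood at 24.2%, 24.2% and 21.7% in +/480, against 10.9%, 10.3% and 10.9% in wild type. In both contexts all +/480 libraries were above all wild-type libraries, and the exon rose by 20.3 and 12.7 points, with the libraries of each group within 3 points of each other. When transcripts held either the 12-base or the 30-base exon, the share with the 12-base exon was 64.7%, 63.3% and 62.8% in +/480, against 81.8%, 79.0% and 79.0% in wild type. It fell by 16.3 points, so the longer exon gained share in every +/480 library. The authors' deposited table gives FDRs of 1.01e-10, 2.18e-10 and 5.88e-08 for the 3 events.

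In Tnnt3, the 39-base exon as a skipped exon was measured after the second 15-base exon. Its inclusion there was 91.7%, 92.4% and 91.3% in the 3 +/480 libraries, against 68.1%, 75.0% and 72.4% in wild type. The +/480 libraries lay within 2 points of each other and 16.3 points above the highest wild-type library, a rise of 19.97 points in the mean. Where the second 15-base exon and the 39-base exon excluded each other, the share with the 15-base exon was 25.3%, 24.2% and 24.4% in +/480, against 49.1%, 43.4% and 43.6% in wild type. With other neighbouring exons, the same choice gave 16.5%, 17.2% and 14.0% in +/480, against 39.0%, 31.1% and 29.2% in wild type. A further context gave 6.2%, 6.2% and 4.9% in +/480, against 23.4%, 17.6% and 18.7% in wild type. These 3 events share the 2 exons and the libraries, so they are views of 1 choice. It fell by 20.7, 17.2 and 14.1 points, and the 39-base exon gained share in every +/480 library. The 39-base exon also gained on the next, 19-base exon, with 39.3%, 40.2% and 34.0% in +/480, against 27.3%, 30.8% and 24.3% in wild type. This rise of 10.4 points was the smallest change of the 110 and became 8.78 points when 1 library was left out.

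Further upstream in Tnnt3, the share of the 18-base exon in its choice against the second 15-base exon was 93.8%, 96.1% and 93.7% in +/480, against 75.4%, 85.3% and 77.5% in wild type. The first 15-base exon took 37.4%, 41.4% and 32.2% of its choice against the second in +/480, against 24.1%, 25.8% and 22.1% in wild type. The second 15-base exon alone, as a skipped exon, was included at 83.3%, 76.0% and 90.4% in +/480, against 98.9%, 96.1% and 99.3% in wild type. It thus lost share to the 18-base, the first 15-base and the 39-base exons, and its own inclusion fell by 14.9 points. No library of one group lay inside the range of the other at any of these events. For 5 of the 8 Tnnt3 events the authors' deposited table lists the FDR as 0.

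The myosin-binding and elastic proteins of the sarcomere gave smaller or looser values. Mybpc1 encodes slow-type myosin-binding protein C, and its 54-base exon (chr10:88537466-88537519) was included at 57.5%, 55.2% and 47.0% in +/480, against 43.6%, 44.4% and 38.7% in wild type. The nearest libraries were 2.60 points apart, the rise was 11.0 points, and it became 8.87 points when 1 library was left out. Pdlim3 encodes a Z-disc protein that binds alpha-actinin, and it chooses between a 188-base and a 68-base exon (from chr8:45908469-45908656). The share with the 188-base exon was 41.1%, 36.4% and 39.0% in +/480, against 22.7%, 26.1% and 27.2% in wild type. All +/480 libraries were higher, by 13.5 points in the mean.

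Ttn encodes titin, the elastic filament that spans the sarcomere from Z-disc to M-line. Its 84-base exon at chr2:76836335-76836418 was included at 100%, 100% and 73.9% in +/480, against 61.6%, 80.9% and 52.4% in wild type, so that 1 +/480 library lay below the highest wild-type library. A second 84-base exon at chr2:76838812-76838895 was included at 100%, 100% and 94.4% in +/480, against 76.2%, 93.4% and 82.0% in wild type. Here the groups stood 1.00 point apart. The 2 exons are identical at 46 of 84 positions (54.8%).

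Contraction is started by the voltage sensor Cacna1s in the T-tubule, which opens the calcium release channel Ryr1 of the sarcoplasmic reticulum, and each gene had 1 event. Their exons, with the Ablim1, Slain2, Lama2 and Rilpl1 exons described next, are shown because each has a length that is a multiple of 3, which keeps the reading frame. Capitals mark the exon as above, on the strand of the gene.
Ryr1 21-base exon, chr7:29117208-29117228, minus strand: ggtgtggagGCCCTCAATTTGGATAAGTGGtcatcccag
Cacna1s 57-base exon, chr1:136104570-136104626, plus strand: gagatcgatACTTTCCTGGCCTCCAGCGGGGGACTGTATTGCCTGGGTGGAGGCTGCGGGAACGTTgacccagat
Ablim1 84-base exon, chr19:57077414-57077497, minus strand: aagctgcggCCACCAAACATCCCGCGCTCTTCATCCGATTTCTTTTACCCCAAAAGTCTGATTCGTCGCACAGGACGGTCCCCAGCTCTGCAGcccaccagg
Slain2 78-base exon, chr5:72965804-72965881, plus strand: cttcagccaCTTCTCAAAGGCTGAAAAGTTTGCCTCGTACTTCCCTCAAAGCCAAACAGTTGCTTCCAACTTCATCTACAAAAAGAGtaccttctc
Lama2 6-base exon, chr10:27053028-27053033, minus strand: ccaaaaacaAAATCAttgcagatg
Rilpl1 24-base exon, chr5:124495899-124495922, minus strand: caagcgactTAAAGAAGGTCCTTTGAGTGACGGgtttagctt
Inclusion of the Ryr1 exon was 16.6%, 21.7% and 23.0% in +/480, against 13.2%, 10.7% and 5.2% in wild type. It rose by 10.7 points, with 3.40 points between the nearest libraries, and by 8.48 points when 1 library was left out. Inclusion of the Cacna1s exon was 28.8%, 27.4% and 25.6% in +/480, against 43.6%, 35.8% and 33.9% in wild type. It fell by 10.5 points, or fell by 7.58 when 1 wild-type library was left out, and all +/480 libraries stayed below all wild-type libraries. These 2 genes were the only ones of 52 calcium-handling genes in the list with an event in +/480.

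**Figure D2:**
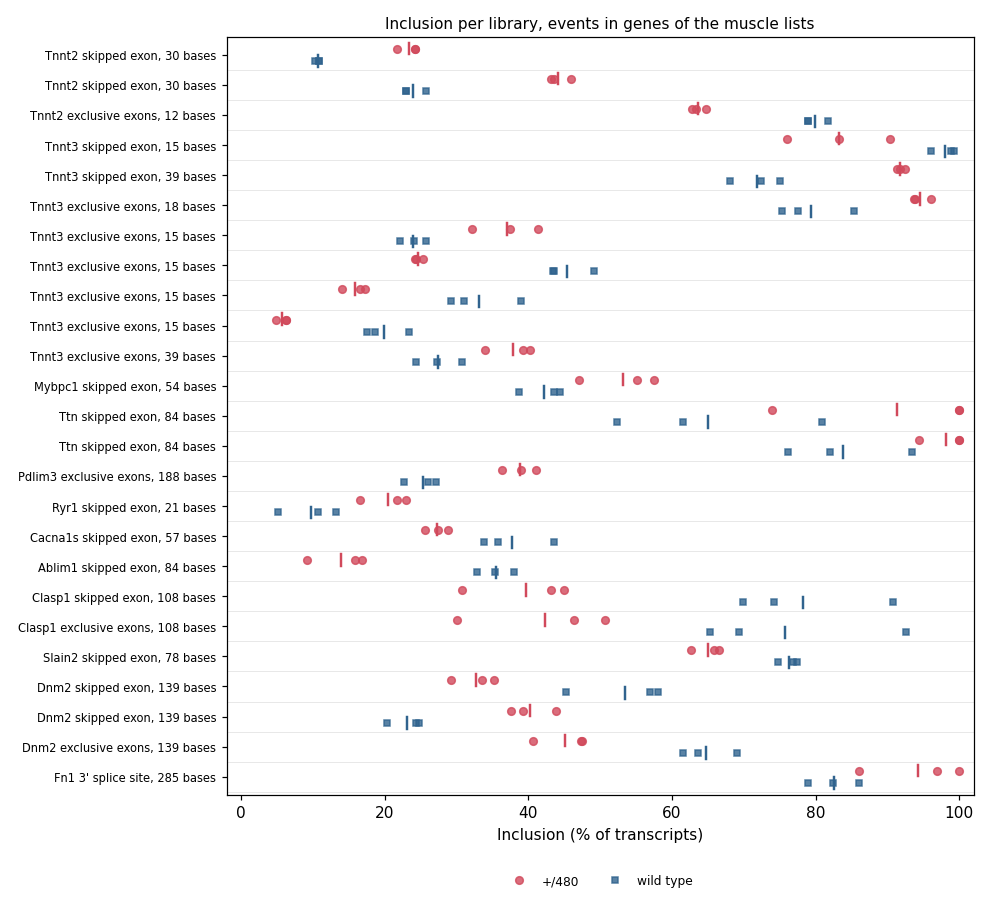
Inclusion (horizontal axis, % of transcripts) of the 25 events in genes of the muscle lists, 1 line per event. Circles are the 3 +/480 libraries, squares the 3 wild-type libraries, and short bars the group means; for exclusive exons the value is the share with the first exon. The groups are apart at 23 of the 25 lines, and overlap at the upper Ttn line and at Fn1.

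Genes of the cytoskeleton and cell polarity list had 11 events in 10 of its 69 genes, 3 higher and 8 lower, and 8 of the 11 did not overlap (72.7%, against 80.9% of all 110 events). Ablim1, an actin-binding LIM protein, included its 84-base exon at 16.8%, 9.2% and 15.8% in +/480, against 35.4%, 32.9% and 38.0% in wild type. Every +/480 library was at least 16.1 points below wild type, and the exon fell by 21.5 points. Clasp1 stabilises microtubule plus ends, and its 108-base exon was included at 45.0%, 30.7% and 43.2% in +/480, against 69.9%, 90.8% and 74.2% in wild type. It fell by 38.7 points, the largest change in the muscle lists, and the nearest libraries were 24.9 points apart. As the alternative to a 63-base exon, the same exon held 50.7%, 30.1% and 46.3% in +/480, against 69.3%, 92.6% and 65.3% in wild type. Slain2, a partner of Clasp proteins at growing microtubules, included its 78-base exon at 62.7%, 66.5% and 65.9% in +/480, against 77.4%, 74.8% and 76.8% in wild type. The 3 libraries of each group lay within 4 points of each other, and the exon fell by 11.3 points.

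The polarity scaffold Scrib included its 63-base exon at 93.3%, 96.2% and 89.3% in +/480, against 73.1%, 71.4% and 68.0% in wild type. All its +/480 libraries were 16.2 points or more above wild type, a rise of 22.1 points. Tjp1, the junction scaffold ZO-1, included its 240-base exon at 6.2%, 8.0% and 10.3% in +/480, against 19.8%, 20.1% and 18.4% in wild type, and fell by 11.3 points without overlap. The longer 5′ splice-site form of Mapre3, a microtubule end-binding protein, stood at 65.0%, 64.6% and 62.2% in +/480, against 71.6%, 80.7% and 83.1% in wild type. It fell by 14.5 points, and its +/480 libraries were within 3 points of each other.

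The other 4 genes of this list had libraries at 100%. A non-coding 158-base exon of Cdc42bpa, a Cdc42-activated kinase, was included at 72.0%, 100% and 100% in +/480, against 34.9%, 56.3% and 39.2% in wild type, a rise of 47.2 points without overlap. A 2703-base coding exon of the crosslinker gene Dst stood at 100%, 92.4% and 100% in +/480, against 74.2%, 100% and 69.8% in wild type. Its groups overlapped, and the rise of 16.1 points became 10.4 points when 1 library was left out. Retention of an intron of Abi2, a subunit of the WAVE actin-nucleation complex, was 100%, 28.5% and 20.1% in +/480, while all 3 wild-type libraries were at 100%. One +/480 library was therefore at the wild-type value. The septin gene Sept4 had 56.7%, 58.5% and 23.2% in +/480, against 100%, 50.2% and 100% in wild type at a 297-base exon. Its groups overlapped, and the exon fell by 37.3 points.

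Rock2 and Nav3 act on the cytoskeleton too but are in none of the lists. Rock2, a kinase that promotes actomyosin contraction, included its 171-base exon at 76.0%, 75.7% and 84.3% in +/480, against 92.2%, 91.4% and 84.7% in wild type. The gap between nearest libraries was 0.400 points, and the exon fell by 10.8 points, or by 9.28 when 1 library was left out. Nav3, a microtubule-binding neuron navigator, included its 42-base exon at 75.5%, 61.6% and 39.1% in +/480, against 100%, 85.2% and 100% in wild type, and fell by 36.3 points with no overlap.

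Membrane trafficking genes had 7 events in 4 of the 50 genes of the list. Inclusion was higher for 1 and lower for 6, where 50.0% of all 110 events were higher. Of the 7, the 3 Dnm2 events describe 1 switch, so the direction count rests on few separate choices. The dynamin gene Dnm2 encodes a GTPase that cuts membrane necks, and it uses 1 of 2 exons of 139 bases each in the same place. The pair is shown because the 2 exons replace each other in the transcript and are identical at 95 of 139 positions (68.3%).
Dnm2 first exon, chr9:21478899-21479037, plus strand: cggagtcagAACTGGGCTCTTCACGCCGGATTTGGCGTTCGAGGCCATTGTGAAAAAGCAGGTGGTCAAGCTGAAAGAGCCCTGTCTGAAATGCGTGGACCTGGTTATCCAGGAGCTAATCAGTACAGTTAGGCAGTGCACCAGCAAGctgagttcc
Dnm2 second exon, chr9:21480407-21480545, plus strand: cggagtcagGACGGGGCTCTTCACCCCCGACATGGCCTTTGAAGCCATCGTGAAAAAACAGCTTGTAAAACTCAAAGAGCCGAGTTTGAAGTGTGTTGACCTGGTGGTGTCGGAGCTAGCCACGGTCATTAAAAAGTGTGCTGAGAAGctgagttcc
The first exon was included at 35.2%, 29.3% and 33.6% in +/480, against 56.9%, 58.1% and 45.3% in wild type. The second exon was included at 39.2%, 43.8% and 37.6% in +/480, against 24.8%, 20.3% and 24.4% in wild type. Measured as a pair, the share with the first exon was 47.5%, 40.6% and 47.4% in +/480, against 63.7%, 69.1% and 61.5% in wild type. The first exon fell by 20.7 points, the second rose by 17.0 and the pair fell by 19.6, with no overlap in any of the 3 events. Each skipped-exon event has the other exon of the pair as a flanking exon, so its values are not shares of all Dnm2 transcripts. The 3 events share these exons and the libraries, so they describe 1 switch.

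Rilpl1, a member of the family of Rab effectors that includes the lysosomal protein RILP, included its 24-base exon at 48.8%, 52.0% and 67.8% in +/480, against 84.4%, 78.3% and 75.2% in wild type. It fell by 23.1 points, and 1 +/480 library was higher than the other 2. Aak1 encodes a kinase of the clathrin adaptor AP2, and its 243-base exon stood at 78.0%, 69.4% and 76.1% in +/480, against 91.9%, 100% and 100% in wild type. Its 111-base exon stood at 63.6%, 100% and 64.5% in +/480, with all 3 wild-type libraries at 100%. The first of these fell by 22.8 points without overlap, and at the second 1 +/480 library was at the wild-type value. Pld1, a phospholipase D, had 100%, 44.2% and 54.3% in +/480, against 85.6%, 100% and 100% in wild type, with overlap, and it fell by 29.0 points, or fell by 18.1 when 1 library was left out. The Rab3 exchange factor Madd also overlapped at a 60-base exon, with 41.0%, 47.1% and 76.9% in +/480, against 100%, 73.5% and 85.9% in wild type.

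Lama2 and Fn1 encode proteins of the matrix around muscle cells. Lama2 is the laminin alpha-2 chain of the basement membrane, and inclusion of its 6-base exon, the shortest skipped exon of the comparison, was 81.1%, 81.0% and 75.1% in +/480, against 100%, 100% and 92.8% in wild type. It fell by 18.5 points, with 11.7 points between the nearest libraries. The longer 3′ splice-site form of Fn1, fibronectin, which fibroblasts also make in large amounts, was 96.9%, 100% and 86.0% in +/480, against 82.5%, 79.0% and 86.1% in wild type. Fn1 is 1 of 33 genes in a list of markers of other cell types, of which Folr1, a folate receptor, was the other with an event. One +/480 Fn1 library equalled the highest wild-type library to within 0.1 points, and the rise of 11.8 points became 8.92 when 1 library was left out. At a 5′ untranslated exon of Folr1 all 3 +/480 libraries were at 100%, against 69.5%, 76.0% and 88.4% in wild type.

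Signalling and guidance genes had 7 events in 5 of 49 genes, 6 higher and 1 lower, against 50.0% higher over all 110 events. None of the 7 overlapped, where 80.9% of all events did not, and every one had a library at 100%. The 2 Fgfr3 events share an exon and the 2 Kazald1 events are forms of 1 exon, so both counts rest on few separate choices. Robo2, a receptor for Slit guidance cues, included a 183-base coding exon at 100% in all 3 +/480 libraries, against 50.4%, 22.5% and 63.6% in wild type. The wild-type libraries spread over more than 40 points, and the nearest lay 36.4 points below. Sema6c, a transmembrane semaphorin, had 40.5%, 36.9% and 47.6% in +/480, against 67.2%, 100% and 100% in wild type at a 145-base 5′ untranslated exon, and fell by 47.4 points. The relaxin receptor Rxfp1 included a 106-base exon at 90.9%, 100% and 100% in +/480, against 38.3%, 58.0% and 67.4% in wild type, a rise of 42.4 points. Each of these 3 genes had tighter values in +/480 than in wild type, but those of Robo2 and Rxfp1 stood at or near the upper limit of 100%.

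In Fgfr3, a fibroblast growth factor receptor, a 151-base coding exon was included at 100%, 62.4% and 66.6% in +/480, against 45.3%, 26.0% and 30.7% in wild type. The retained-intron event of Fgfr3 spans that exon, and it stood at 100%, 71.8% and 74.9% in +/480, against 59.2%, 38.4% and 45.0% in wild type. The 2 events rose by 42.3 and 34.7 points. Since the interval counted as an intron holds the exon, they are not independent. Kazald1, which encodes a secreted protein related to insulin-like growth factor binding proteins, gave 100%, 48.1% and 100% in +/480, against 25.8%, 25.8% and 36.7% in wild type at a 573-base exon. A 550-base form of that exon gave 100%, 51.9% and 100% in +/480, against 26.5%, 26.5% and 45.7% in wild type. In both, 1 +/480 library lay near 50%, between the wild-type libraries and the other 2.

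Transcription factors and cofactors of the list had 4 events in 4 of 44 genes. Inclusion was higher for 3 and lower for 1, where 50.0% of all 110 events were higher. None of the 4 overlapped, where 80.9% of all events did not, and 4 events are too few to set apart from that share. Tbp, the TATA-binding protein, used the longer form of a 5′ untranslated exon at 82.0%, 100% and 100% in +/480, against 49.5%, 30.3% and 17.9% in wild type. The nearest libraries were 32.5 points apart and the rise was 61.4 points, the largest at a 5′ splice site. Runx2, the osteoblast transcription factor, had 100%, 58.3% and 100% in +/480, against 21.9%, 35.9% and 41.2% in wild type at a 193-base exon of non-coding transcripts, a rise of 53.1 points. Gtf2i encodes the transcription factor TFII-I, and its 196-base 5′ untranslated exon stood at 52.5%, 45.4% and 66.0% in +/480, with all wild-type libraries at 100%. It fell by 45.4 points and no +/480 library was within 34.0 points of wild type.

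Nuclear receptors had further events. Nr2c1 included a 122-base exon at 100% in all +/480 libraries, against 72.7%, 77.4% and 64.4% in wild type, and rose by 28.5 points. In Nr2f6, a 139-base exon stood at 79.2%, 73.7% and 85.4% in +/480, against 96.4%, 97.5% and 95.2% in wild type. A 168-base form of the same exon fell by 18.4 points, and no library was at 100% in either form. Retention of an intron of Nr1h2, a liver X receptor, overlapped, with 57.3%, 68.0% and 100% in +/480, against 100%, 86.9% and 100% in wild type. It fell by 20.5 points, or fell by 11.6 when 1 library was left out. The histone deacetylase Hdac3 had 81.7%, 100% and 100% intron retention in +/480, against 48.2%, 62.1% and 78.6% in wild type, which left 3.10 points between the groups. The longer 3′ splice-site form of Myc, 3 bases longer, overlapped between groups, with 100%, 100% and 79.4% in +/480, against 81.2%, 76.2% and 65.8% in wild type.

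The 2 largest changes of all 110 events were retained introns. Retention in Cetn4, a centrin gene, was 7.0%, 15.8% and 25.3% in +/480, with all 3 wild-type libraries at 100%. In Cdc7, a kinase that starts DNA replication, retention was 100% in all 3 +/480 libraries, against 8.0%, 8.0% and 34.3% in wild type. Cetn4 fell by 84.0 points and Cdc7 rose by 83.2, and in each gene 1 of the groups had no spread at all. Hps1, a subunit of a complex that builds lysosome-related organelles, had 100% in all +/480 libraries, against 46.9%, 39.0% and 46.9% in wild type, a rise of 55.7 points. Abhd11, a mitochondrial hydrolase, likewise had 100% in all +/480 libraries, against 54.1%, 77.9% and 22.7% in wild type. As in Cdc7, the +/480 libraries of both genes were all at the upper limit. The zinc finger gene Zfp653 fell by 43.3 points, with 49.9%, 43.4% and 51.6% in +/480, against 74.9%, 100% and 100% in wild type. Retention of an intron of Map1lc3b, the autophagosome protein LC3, was 100%, 100% and 68.5% in +/480, against 68.2%, 40.6% and 42.2% in wild type, with 0.300 points between the groups. Of the 14 retained introns 8 rose and 6 fell, and 10 did not overlap (71.4%, against 80.9% of all 110 events). Every one had a library at a limit. Among those that overlapped or touched were Mutyh, a DNA repair glycosylase with 100%, 100% and 68.3% in +/480 against 17.8%, 44.7% and 76.4% in wild type, and the deadenylase subunit Pan2 with 64.5%, 35.3% and 52.2% in +/480 against 100%, 100% and 64.5% in wild type.

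Several genes had events of different types that share sequence. In E4f1, a zinc finger factor, retention was 59.2%, 56.8% and 34.3% in +/480, against 100%, 100% and 67.6% in wild type, and the longer 3′ splice-site form next to it was 76.4%, 75.8% and 65.5% in +/480, against 100%, 100% and 78.1% in wild type. Both fell without overlap. Idua encodes a lysosomal iduronidase, and its retention was 100%, 100% and 75.8% in +/480, against 66.6%, 66.6% and 22.2% in wild type. The longer 3′ splice-site form of Idua was 100%, 100% and 83.7% in +/480, against 75.0%, 82.5% and 20.5% in wild type. One low wild-type library set much of the size of both, and the rises of 40.1 and 35.2 points became 25.3 and 15.8 points when it was left out. Hps3, a subunit of another complex for lysosome-related organelles, had 81.6%, 62.0% and 44.9% in +/480 at a 247-base exon and 81.7%, 67.4% and 55.2% in +/480 at a 3′ splice site, with all wild-type libraries at 100% in both.

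Alternative 3′ splice sites had the lowest share without overlap, 7 of 12 events (58.3%, against 80.9% of all 110). All 12 had a library at 100%. Of all 74 events with a library at 0% or 100%, 53 (71.6%) did not overlap. The chemokine gene Ccl27a had 59.7%, 42.5% and 59.7% in +/480, against 100%, 79.8% and 100% in wild type, and fell by 39.3 points. The zinc finger gene Zfp1 fell by 35.0 points, with 46.1%, 76.2% and 49.0% in +/480, against 100%, 76.2% and 100% in wild type, and the groups touched at the same value. Wdr45, a protein of autophagosome formation, had 89.6%, 72.4% and 41.7% in +/480, with all wild-type libraries at 100%. It fell by 32.1 points, or by 19.0 when the lowest library was left out. This Wdr45 splice site is also listed in 480/480 choroid plexus, where it was 87.7% and 48.8% in the 2 listed 480/480 libraries, against 100%, 100% and 81.1% in wild-type choroid plexus. Acaa1a and Mfsd2a rose without overlap, while the rises of Ppp6r2 and Trmt11 came with overlapping or touching libraries and became 8.40 and 22.7 points when 1 library was left out.

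Among long non-coding RNAs, the imprinted transcripts Rian and Meg3 both had a skipped exon that rose. Rian had 83.9%, 100% and 100% in +/480, against 35.0%, 0% and 35.0% in wild type, at a 64-base exon (chr12:109635394-109635457). All +/480 libraries were 48.9 points or more above wild type, and 2 wild-type libraries had the same value. Meg3 had 28.8%, 0% and 30.7% in +/480, against 0%, 0% and 18.2% in wild type, at a 94-base exon (chr12:109544948-109545041). Its groups overlapped and its rise of 13.8 points became 8.33 when 1 library was left out. The 2 genes lie 32.2 kb apart on the plus strand of chromosome 12. Firre, a nuclear RNA transcribed from the X chromosome, used its longer 5′ splice-site form at 70.1%, 65.4% and 89.8% in +/480, against 100%, 100% and 89.5% in wild type, with overlap.

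Other genes with a wide gap between the groups were the ubiquitin ligase Huwe1, Fam151b and the transporter Slc38a6. Huwe1 had 100%, 79.9% and 100% in +/480, against 46.9%, 26.9% and 63.8% in wild type at a 5′ untranslated exon, a rise of 47.4 points. Fam151b had 58.3%, 35.9% and 58.3% in +/480 at a 166-base coding exon, with all wild-type libraries at 100%. Slc38a6 had 31.8%, 43.5% and 18.9% in +/480, against 1.2%, 1.5% and 1.2% in wild type at a 1535-base exon. The wild-type libraries of Slc38a6 were within 1 point of each other, and the lowest +/480 library was 17.4 points above them.

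None of 69 genes in a list of RNA-binding and splicing proteins, which held the Mbnl, Celf and Rbfox genes, had an event in +/480. Tnrc6a, a partner of Argonaute proteins in microRNA silencing, included a 33-base exon at 71.8%, 71.8% and 88.4% in +/480, with all wild-type libraries at 100%. Rps24, a protein of the small ribosomal subunit, included its 18-base exon at 34.1%, 34.7% and 41.6% in +/480, against 51.4%, 45.8% and 55.6% in wild type. Rps24 fell by 14.1 points with no overlap and no library at a limit.

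The remaining genes rose or fell at 1 skipped exon each, apart from 2 forms of 1 exon in Sdr39u1 and a 5′ splice site in Strada. Fbxo31, the substrate-binding part of a ubiquitin ligase, included its 87-base exon at 14.7%, 12.0% and 13.1% in +/480, against 32.2%, 24.7% and 20.7% in wild type. It fell by 12.6 points with no overlap, or fell by 9.43 when 1 library was left out. Strada, a pseudokinase that activates the kinase LKB1, used its longer 5′ splice-site form at 63.9%, 84.1% and 55.8% in +/480, with all wild-type libraries at 100%. Zfand3, a zinc finger protein, included a 41-base exon at 94.9%, 97.4% and 95.4% in +/480, against 82.7%, 78.2% and 87.3% in wild type. None of its libraries was at a limit. Rev3l, the catalytic subunit of DNA polymerase zeta, had 17.5%, 6.9% and 3.3% in +/480, against 30.8%, 27.1% and 32.6% in wild type at an exon of non-coding transcripts. Pdp1, a mitochondrial phosphatase of pyruvate dehydrogenase, had 100%, 93.5% and 100% in +/480, against 70.5%, 78.9% and 78.4% in wild type at a 35-base exon. Neither gene overlapped, and they moved in opposite directions. Gabpb2, Adamts6, Cdpf1, Ip6k2, Prdm2 and Zscan21 rose by 21.8 to 32.9 points without overlap and with at least 2 of 3 +/480 libraries at 100%. Dpy19l3 and Thap7 fell by 23.6 and 24.0 points without overlap, while the endosomal gene Gripap1 overlapped. For 4 genes the size rested on single libraries. Rps6kb2, a ribosomal S6 kinase, fell by 27.8 points, or fell by 16.3 without 1 library, and Atrnl1 fell by 22.4, or fell by 12.1. The metalloprotease gene Mmp23 overlapped, and its rise of 28.7 points became 14.6 without 1 library. The 2 forms of the Sdr39u1 exon fell by 16.6 and 13.2 points, or fell by 10.9 and 8.50.

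Dmpk, the edited gene, had no event in this comparison, and its level cannot be read from these tables. Sympk, a scaffold of the 3′-end processing machinery, lies 29.2 kb upstream of Dmpk on the same strand of chromosome 7. Its 126-base 5′ untranslated exon (chr7:19027897-19028022) was included at 20.3%, 20.6% and 11.6% in +/480, against 42.7%, 41.9% and 27.6% in wild type. It fell by 19.9 points, and all +/480 libraries were below all wild-type libraries.

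**Figure D3:**
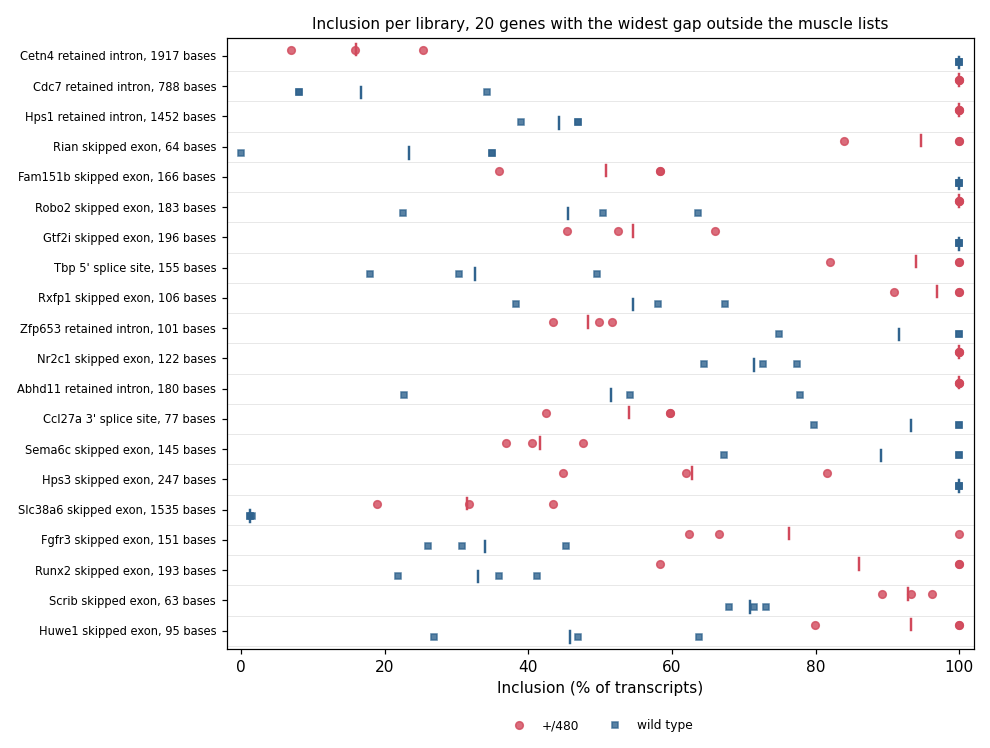
Inclusion (horizontal axis, % of transcripts) at the 20 events with the widest gap between the groups among genes outside the muscle lists, 1 event per gene and the widest gap at the top. Circles are the 3 +/480 libraries, squares the 3 wild-type libraries and short bars the group means. At 18 of the 20 lines at least 1 library is at 0% or 100%, the exceptions being Slc38a6 and Scrib.

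The skipped exons were 68 distinct exons with a median length of 109.5 bases and a range of 6 to 2703. By GENCODE M21, 46 were wholly coding, 4 partly coding, 8 in 5′ untranslated regions and 10 in non-coding transcripts. A length that is a multiple of 3, which keeps the reading frame whether or not the exon is used, was found for 31 of the 46 coding exons (67.4%, 95% Wilson interval 53.0 to 79.1). It was found for 11 of the 13 skipped exons in the muscle lists (84.6%), the exceptions being the 2 Dnm2 exons that replace each other. Of coding exons that rose, 10 of 19 kept the frame (52.6%, interval 31.7 to 72.7), and of those that fell, 21 of 27 did (77.8%, interval 59.2 to 89.4), and these intervals overlap. Among the 19 coding exons with no library at 0% or 100%, 15 kept the frame (78.9%), against 16 of 27 with such a library (59.3%). In the other comparisons of the series, coding skipped exons kept the frame at 109 of 131 in 480/480 myotubes (83.2%). The counts were 24 of 39 in 480/480 choroid plexus (61.5%) and 9 of 15 in 480/480 tibialis anterior muscle. The share in +/480 myotubes lay between these, so keeping the frame did not set the +/480 exons apart. Over all 165095 internal coding exon segments of the annotation, skipped or not, 41.1% have a length that is a multiple of 3, and the median length is 123 bases. Exons of 60 bases or less were 17 of the 68, of which 13 kept the frame, and segments of that length make up 8.92% of those annotated. Exons are not replicates, so these shares carry no test.

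**Figure D4:**
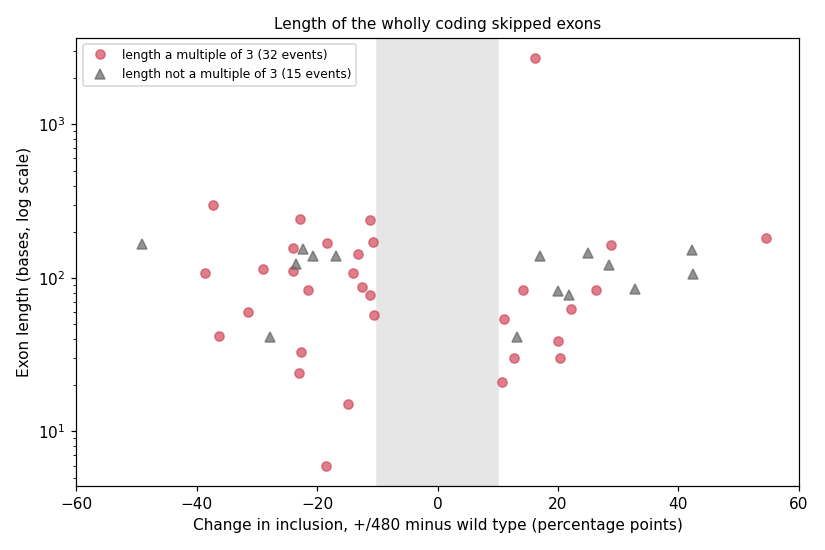
Length (vertical axis, bases, log scale) of the wholly coding skipped exons against the change in inclusion (horizontal axis, +/480 minus wild type, percentage points), 1 point per event. Circles are lengths that are a multiple of 3 and triangles the other lengths. The grey band is the range under 10 points that the authors' selection left empty. The shortest exons, down to the 6 bases of Lama2, are circles.

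The 480/480 myotube tables allow 2 expanded alleles to be set beside 1. Of the 110 +/480 events, 48 in 35 genes are also listed in 480/480 myotubes with the same exon and the same flanking exons, and 62 are not. Both comparisons use the same 3 wild-type libraries and both lists were selected on them, so the 480/480 and +/480 libraries are compared here directly. Their 3 libraries did not overlap at 16 of 48 events (33.3%). Several of the 48, in Tnnt3, Tnnt2 and Dnm2, are views of the same choice, so the events are not independent of each other. An event whose 480/480 mean came within 10 points of wild type could not be among the 48. The selection thus favours 480/480 means further from wild type, most of all where the +/480 change was close to 10 points. Over all 48 events the 480/480 mean was further from wild type than the +/480 mean at 38 and nearer to it at 10. At the 16 events without overlap it was further at each, and each reached p = 0.10 in the exact two-sided permutation test, the smallest that 3 against 3 libraries can give. After Benjamini-Hochberg adjustment over the 48 events the smallest p was 0.30 (exact permutation test), so no single event passes a threshold of 0.05. The 16 events lie in 10 genes, Tnnt3, Tnnt2, Dnm2, Pdlim3, Cacna1s, Slain2, Lama2, Rilpl1, Rps24 and Fbxo31.

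The Tnnt2 30-base exon was included at 23.0%, 25.7% and 23.0% in wild type, at 43.1%, 45.9% and 43.6% in +/480 and at 67.7%, 55.1% and 72.1% in 480/480. The steps in the mean were 20.3 points to +/480 and a further 20.8 to 480/480, and the 480/480 libraries spread more widely than those of the other groups. After the second 15-base exon, the Tnnt3 39-base exon stood at 68.1%, 75.0% and 72.4% in wild type. It was at 91.7%, 92.4% and 91.3% in +/480 and at 97.7%, 97.5% and 97.7% in 480/480. There the step to +/480 was 19.97 points and the further step to 480/480 was 5.83, with inclusion in 480/480 within 3 points of the upper limit. The first 15-base exon of Tnnt3 had steps of 13.0 and 14.9 points, with 52.7%, 51.1% and 51.8% in 480/480.

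Among the 16 events without overlap were also exons that fell. Of all 31 matched events that fell in +/480, 24 had a lower mean in 480/480 than in +/480 and 7 a higher one, among them Zfp653, Sema6c and Sept4, whose libraries overlapped. Cacna1s stood at 43.6%, 35.8% and 33.9% in wild type, at 28.8%, 27.4% and 25.6% in +/480 and at 19.1%, 15.4% and 13.8% in 480/480. Rilpl1 stood at 84.4%, 78.3% and 75.2% in wild type, at 48.8%, 52.0% and 67.8% in +/480 and at 28.4%, 26.4% and 32.8% in 480/480. The 3 genotypes did not overlap in either gene. The 6-base exon of Lama2 was at 73.5%, 61.8% and 57.6% in 480/480 and Slain2 at 44.0%, 56.4% and 51.7%, each below all +/480 libraries given above. The Pdlim3 188-base exon, which rose, reached 64.1%, 46.1% and 50.7% in 480/480.

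At other events the 2 genotypes could not be separated. The Ablim1 exon was at 5.6%, 11.8% and 9.4% in 480/480, against 16.8%, 9.2% and 15.8% in +/480, and these overlap (exact permutation p = 0.30). The Clasp1 108-base exon was at 24.4%, 41.3% and 42.0% in 480/480, against 45.0%, 30.7% and 43.2% in +/480, again with overlap (exact permutation p = 0.50). For Sympk, 480/480 libraries were at 13.8%, 11.6% and 11.1%, against 20.3%, 20.6% and 11.6% in +/480. Scrib had 94.6%, 91.4% and 83.9% in 480/480, against 93.3%, 96.2% and 89.3% in +/480, and Tjp1 had 9.2%, 10.6% and 6.4% in 480/480, against 6.2%, 8.0% and 10.3% in +/480. With 3 libraries a group, overlap does not show that 1 and 2 expanded alleles act alike at these exons.

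**Figure D5:**
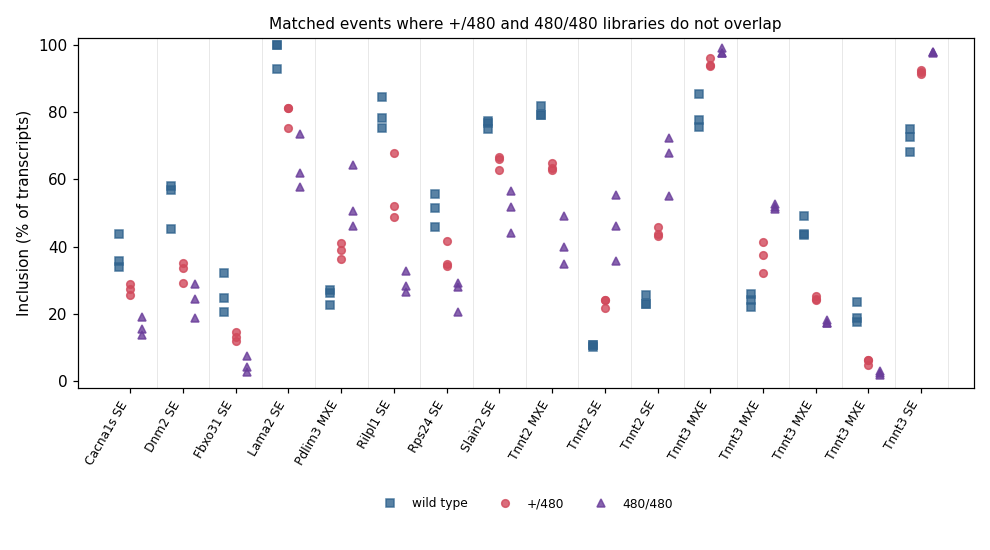
Inclusion (vertical axis, % of transcripts) at the 16 matched events where the +/480 and 480/480 libraries do not overlap (SE, skipped exon; MXE, mutually exclusive exons, share with the first exon). Squares are wild-type, circles +/480 and triangles 480/480 libraries, 3 each. In every column the +/480 libraries lie between the wild-type and the 480/480 libraries.

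Events close to the authors' limits show how far the list depends on them. The smallest changes were those of Tnnt3 (the choice between the 39-base and 19-base exons), Cacna1s, Ryr1, Rock2 and Mybpc1, at 10.4 to 11.0 points in size. The highest FDRs in the authors' deposited table were 0.0497 for Atg7, 0.0481 for Mybpc1, 0.047 for Mfsd2a and 0.0456 for Mapre3. Atg7, an enzyme of autophagy, had 80.4%, 12.8% and 54.0% in +/480, against 100%, 100% and 67.2% in wild type at a 5′ untranslated exon. Its groups overlapped, and the exon fell by 40.0 points, or fell by 21.9 when 1 library was left out. No event outside these limits is in the tables used here.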

How the data were processed

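The submitters' processing notes name FastQC for read quality, STAR for alignment and the mm10 build, without versions. The sources used here do not name the program that called and tested events. Deposited tables, 20 over the series and 5 for +/480 myotubes, list the inclusion of each event in every library as a fraction computed by the authors, with a p-value and an FDR per event that were taken as deposited. Their deposited difference score is wild type minus expansion. Events were kept by the authors, per the file headers, where their average reads were at least 5, their FDR at most 0.05 and their difference at least 0.1. The depth per library is unknown beyond that.

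Fractions were multiplied to percentages, and changes were recomputed as +/480 minus wild type from the library values. The result lay within 0.0333 points of the deposited difference with its sign turned. Groups were taken from the labels. No replicate number is attached to the library values in the tables. All gene IDs of the 88 genes matched a symbol, 1 of which (Sept4) stood in the file as a date. The value of mutually exclusive exons was read as the share with the first exon, which moved with the skipped-exon event of the same exon in 14 of 14 checks. Exon classes, gene positions and sequences came from GENCODE M21 on the C57BL/6J reference, while the mice were FVB.

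No new test was run on +/480 against wild type, since the tables hold events already selected in these libraries. Libraries of 480/480 and +/480 at matched events were compared with an exact two-sided permutation test, adjusted by the Benjamini-Hochberg method over 48 events. Wilson intervals are at 95%. The members and 9 gene lists were chosen with earlier results of these data known. Values per library are given for events in the muscle lists, for the 15 largest skipped-exon changes and the 15 widest gaps with 1 per gene, for the 3 largest changes of each other type, for exons listed in other tissues and for events next to the thresholds. Other genes named with values were chosen after these were seen, and 1 event is counted but not reported by name here. Alternatives were a stricter FDR, change or SD, 1 event per gene, no events at the limits, a minimum gap, medians, log-odds, other matching and leaving out each library. The planned count of MBNL motifs beside exons was left out, since no genome sequence was used. Calculations were tested on simulated data. Python 3.11.15, NumPy 2.4.6, SciPy 1.17.1, pandas 2.3.3 and matplotlib 3.10.9 were used.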

Additional observations from a re-analysis of the deposited data

Results flagged for a closer look

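An 84-base Ttn exon (chr2:76838812-76838895) rose by 14.3 points in +/480 myotubes, with 100%, 100% and 94.4% in +/480, against 76.2%, 93.4% and 82.0% in wild type. In the 480/480 table the same exon, with other flanking exons, was at 50.6%, 36.1% and 62.1% in 480/480, against 84.8%, 74.1% and 70.8% in wild type. It stands out because every +/480 library was above and every 480/480 library below the wild-type libraries of its own event. The difference between the genotypes was not tested, and the flanking exons differ, so the 2 values do not describe the same event.

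A 45-base exon of Tmem134 (chr19:4131031-4131075), in a non-coding transcript, rose by 26.6 points in +/480 myotubes. All +/480 libraries were at 100%, against 89.0%, 87.3% and 43.9% in wild type, and the rise became 11.9 points when the lowest wild-type library was left out. In choroid plexus the exon moved the other way, with 84.9% and 62.5% in the 2 listed 480/480 libraries, against 100% in all 3 wild-type libraries. This difference between tissues and genotypes was not tested.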

How the results depend on the processing

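The direction of all 110 changes was kept with medians, on the log-odds scale and without any 1 library. The events were selected for changes of 10 points or more in these same libraries, so this is no independent support. Requiring an FDR of 0.01 or less in the authors' deposited table left 53 events, 24 higher and 29 lower, of which 49 did not overlap. An SD under 10 points in both groups left 48 events, 22 higher and 26 lower, of which 46 did not overlap. A change of 20 points or more left 74 events, 38 higher and 36 lower, of which 59 did not overlap. Dropping events with any library at 0% or 100%, an alternative chosen after seeing the data, left 36 events, 14 higher and 22 lower, and all 36 did not overlap. With 1 event per gene there were 88 events, 44 higher and 44 lower. Matching 480/480 to +/480 by the exon whatever its flanks gave 25 pairs without overlap of 59 (42.4%), in place of 16 of 48 (33.3%), and some exons stand in several pairs. Leaving out 1 library gave 105 to 108 events past 10 points, 52 to 55 higher, 52 to 55 lower and 87 to 96 without overlap. Between 480/480 and +/480 it gave 17 to 22 without overlap. Groups that are apart stay apart once a library is removed, so the counts without overlap say little about robustness. The count between 480/480 and +/480 could not fall below 16. Of 770 changes recomputed for single events, 769 moved by less than the spread between libraries, and Map1lc3b moved to 57.8 points with medians. Most of the 770 leave out 1 of 3 libraries, which cannot move a group mean by more than the SD of that group. The count of 769 therefore says little about robustness. Leaving out 1 library took 10 events under 10 points, 5 of them in the muscle lists. It moved 17 events by over 1.5 times, none of them in the muscle lists. No paired analysis was possible because the deposited library values carry no replicate number. Read depth is unknown, so precision at single events cannot be stated.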
